A study of Homo sapiens with 6 samples.

Results

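The E2F, FOXM1 and MuvB cell cycle regulators are transcription factors and adaptor proteins that switch gene programmes on and off as a cell divides. Described here are E2F1, E2F2, E2F3, E2F4, E2F7, E2F8, FOXM1, MYBL2, LIN54 and LIN9, chosen by gene name, which are 10 of the 50868 genes in the deposited expression table. Each name matched a single row, and all 10 had enough counts to be tested. Among the E2F factors, E2F1, E2F2 and E2F3 are known as activators of genes for entry into S phase, E2F4 as a repressor that works with the pocket proteins RB1, RBL1 and RBL2, and E2F7 and E2F8 as atypical repressors that bind DNA without a DP partner. MuvB is a core complex that includes LIN9 and LIN54. With RBL1 or RBL2 and E2F4 it forms the repressive DREAM complex of resting cells, and with MYBL2 (B-MYB) and then FOXM1 it activates genes of G2 phase and mitosis.

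RNA was sequenced from KYSE-150, an established human oesophageal squamous carcinoma line, cultured with 10% fetal bovine serum at 37 °C in 5% carbon dioxide. The groups were siZNF514, in which the labels give the zinc finger gene ZNF514 as knocked out by siZNF514, and nc, the wild-type cells of the series text, with 3 libraries each. The sources do not say whether nc cells received a control siRNA, how long after treatment RNA was taken, or whether libraries came from separate cultures, so p-values measure the spread between these libraries, which may be technical. Total counts were 13262363 to 14318909 in siZNF514 libraries and 12175259 to 13696180 in nc libraries. Levels are in CPM (counts scaled to a common library size with TMM factors), and differences are log2 fold changes of siZNF514 over nc with their standard error (SE), from edgeR's quasi-likelihood test, with p adjusted by Benjamini-Hochberg over 14250 genes and called under 0.05.

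ZNF514 itself had 64, 82 and 63 counts in the siZNF514 libraries, against 239, 273 and 261 in the nc libraries, a log2 fold change of -1.87 (SE 0.14; exact two-sided permutation p = 0.1, the smallest that 3 against 3 libraries allow). Of 11 squamous epithelial markers, 10 were tested, with summed levels of 2262 to 2613 CPM in siZNF514 and 2758 to 2974 CPM in nc, while SOX2 was nearly absent with 0, 1 and 2 counts in siZNF514 and 3, 0 and 2 in nc. Of 6 fibroblast markers, 1 was tested, and their sum was 0.46 to 17.4 CPM in siZNF514 against 1.82 to 3.55 CPM in nc. The highest sum was in siZNF514 replicate 3, where COL3A1 had 112 counts, against 0 and 0 in the other siZNF514 libraries and 5, 3 and 2 in nc. Of 6 immune markers, 2 were tested (49.2 to 57.5 CPM summed in siZNF514, 57.4 to 69.3 CPM in nc). Of 5 endothelial markers, 2 were tested (1.88 to 2.42 CPM in siZNF514, 3.11 to 3.31 CPM in nc), with CLDN5 at 0. Fold changes and calls were also computed without siZNF514 replicate 3, which left 4 regulators higher and 2 lower (FOXM1 and LIN9 not past). The E2F shares and ratios, the levels between genes and the nearest profiles were not recomputed in that way. The part of these markers was not otherwise tested.

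Several of these genes are known targets of the E2F factors themselves, and their promoters are shown for the letters those factors bind. The sequences are RefSeq windows on GRCh38.p14, from 250 bases before to 50 bases after a RefSeq start of the gene, on the sense strand. Of the 10 genes, 8 had a window (FOXM1 and E2F8 did not). Searched on both strands were the E2F letters (TTCGCGC or TTCGCGG, and also TTGGCGC or TTGGCGG), the CHR letters (TTTGAA or TTCGAA), which LIN54 is known to bind within MuvB, and the box CCAAT. The second form of the CHR letters reads the same on both strands. The windows lie at chr20:33686336-33686635 on the minus strand for E2F1, chr1:23531184-23531483 on the minus strand for E2F2, chr6:20401629-20401928 on the plus strand for E2F3, chr12:77065520-77065819 on the minus strand for E2F7, and chr20:43666864-43667163 on the plus strand for MYBL2. Capitals mark E2F letters, and in E2F3 also the CHR letters.
E2F1: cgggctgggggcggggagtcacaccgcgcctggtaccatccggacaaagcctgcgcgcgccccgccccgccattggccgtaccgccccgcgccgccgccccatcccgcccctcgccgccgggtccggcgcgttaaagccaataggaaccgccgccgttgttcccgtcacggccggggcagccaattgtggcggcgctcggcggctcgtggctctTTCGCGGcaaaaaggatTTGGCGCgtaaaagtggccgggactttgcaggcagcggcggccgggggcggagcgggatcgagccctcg
E2F2: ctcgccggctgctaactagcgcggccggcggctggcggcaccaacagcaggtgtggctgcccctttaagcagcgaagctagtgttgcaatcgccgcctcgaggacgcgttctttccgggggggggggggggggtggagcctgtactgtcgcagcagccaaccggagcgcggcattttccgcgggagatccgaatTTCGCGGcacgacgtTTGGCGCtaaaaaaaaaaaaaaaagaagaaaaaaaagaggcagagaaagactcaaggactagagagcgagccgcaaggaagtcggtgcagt
E2F3: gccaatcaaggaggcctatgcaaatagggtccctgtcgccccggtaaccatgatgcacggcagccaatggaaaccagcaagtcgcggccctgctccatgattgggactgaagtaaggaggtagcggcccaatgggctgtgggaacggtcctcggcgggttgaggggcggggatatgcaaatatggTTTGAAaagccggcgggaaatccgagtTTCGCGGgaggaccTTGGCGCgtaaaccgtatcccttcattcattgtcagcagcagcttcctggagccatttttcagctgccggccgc
E2F7: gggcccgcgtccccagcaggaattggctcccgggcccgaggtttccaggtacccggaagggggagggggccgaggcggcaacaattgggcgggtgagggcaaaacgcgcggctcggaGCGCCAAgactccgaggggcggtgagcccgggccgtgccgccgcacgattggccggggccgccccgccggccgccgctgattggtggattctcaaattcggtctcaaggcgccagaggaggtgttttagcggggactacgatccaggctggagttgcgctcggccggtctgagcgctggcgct
MYBL2: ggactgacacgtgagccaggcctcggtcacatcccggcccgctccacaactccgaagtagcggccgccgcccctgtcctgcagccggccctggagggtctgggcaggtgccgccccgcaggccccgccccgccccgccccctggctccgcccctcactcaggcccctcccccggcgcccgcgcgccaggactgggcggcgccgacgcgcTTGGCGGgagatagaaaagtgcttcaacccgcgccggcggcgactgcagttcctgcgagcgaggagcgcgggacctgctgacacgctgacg

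The E2F1, E2F2 and E2F3 windows share a pair of matches in the same order, TTCGCGG and then TTGGCGC. Counted from the start, the pair began at -36 and -19 in E2F1, at -56 and -41 in E2F2, and at -38 and -24 in E2F3. E2F7 held a single match on the opposite strand, printed as GCGCCAA, and MYBL2 a single TTGGCGG. E2F4 held no letters of the 3 kinds in its window (chr16:67191905-67192204, plus strand). LIN54 held TTTGAA and TTGGCGG close together, at -100 and -92 in its first window, and of 3 LIN9 windows 1 held CHR letters. The RefSeq starts of these LIN54 and LIN9 windows lie 2103 and 705 bases downstream of the deposited gene starts. The second E2F3 window, 1708 bases downstream, held no letters of the 3 kinds. In all, 6 of the 8 genes held E2F letters in some window, against 20.7% of 10001 tested genes and 10.3% of all 35116 windows. For CHR letters it was 3 of 8, against 15.2% of tested genes and 16.4% of all windows, and for CCAAT also 3 of 8, against 43.2% and 34.6%. The letters were chosen after the sequences were seen, so these shares are no independent test. A match describes letters and not binding.

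**Figure D1:**
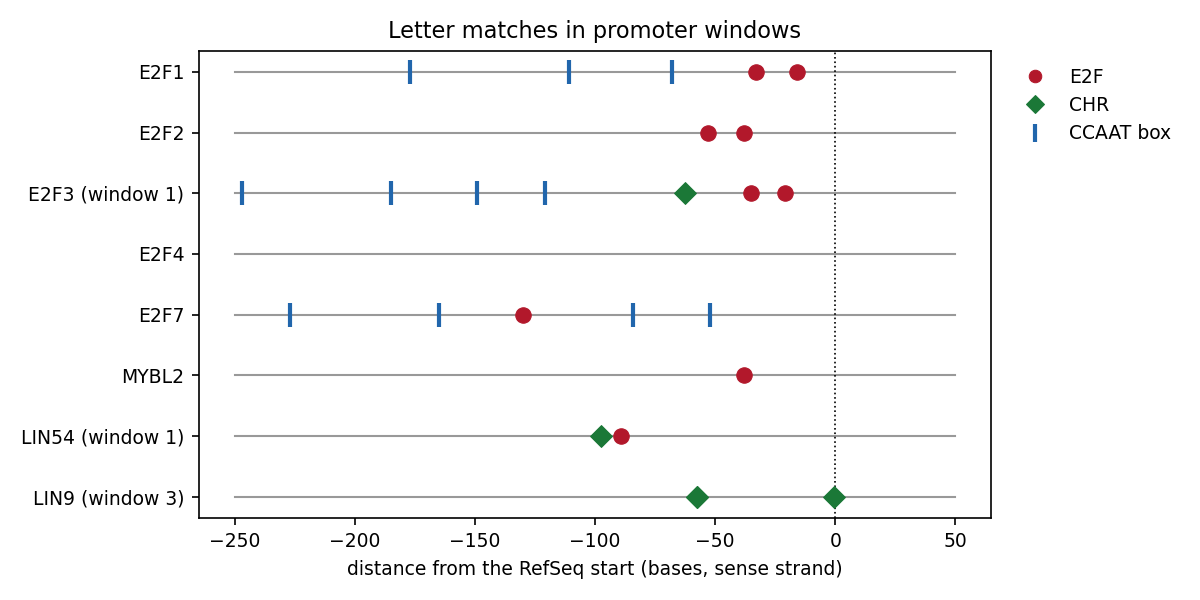
Letter matches in RefSeq promoter windows of 8 regulators, by distance from the RefSeq start in bases on the sense strand (start at 0, dotted line). Of genes with several windows, window 1 is drawn for E2F3 and LIN54, and window 3 for LIN9. Window 2 of E2F3 and windows 1 and 2 of LIN9 held no matches and are not drawn. Circles are E2F letters, diamonds CHR letters and bars CCAAT, and E2F1, E2F2 and E2F3 each show a pair of E2F matches just before the start.

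The series title concerns proliferation, and siZNF514 was compared with nc for the regulators that time it. The regulators divided: E2F1, E2F7, E2F8 and MYBL2 rose, E2F2, E2F4, FOXM1 and LIN9 fell, and E2F3 and LIN54 did not pass the test. So 4 of 10 rose and 4 of 10 fell, where 25.5% of all tested genes rose, 25.1% fell and 50.6% were called in either direction. The siZNF514 and nc libraries did not overlap for the 8 called genes, as was the case for 60.3% of all tested genes. On the TMM scale with all 6 libraries no regulator reached a 2-fold change, which 9.28% of tested genes did with a call. E2F7 passed it without nc replicate 3 (1.00), and E2F2 with total counts alone and in limma with a pseudocount of 0.01 (-1.01 in both). The median log2 fold change was -0.22 over the regulators and -0.01 over all tested genes. E2F2, E2F4, E2F7 and MYBL2 kept their call in all 16 alternative analyses. Among other calls, E2F1 held in 15, FOXM1 in 13, LIN9 in 8 and E2F8 in 7. With total counts in place of TMM factors the median of all tested genes moved to -0.14, and 2 regulators were then called higher and 6 lower.

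**Figure D2:**
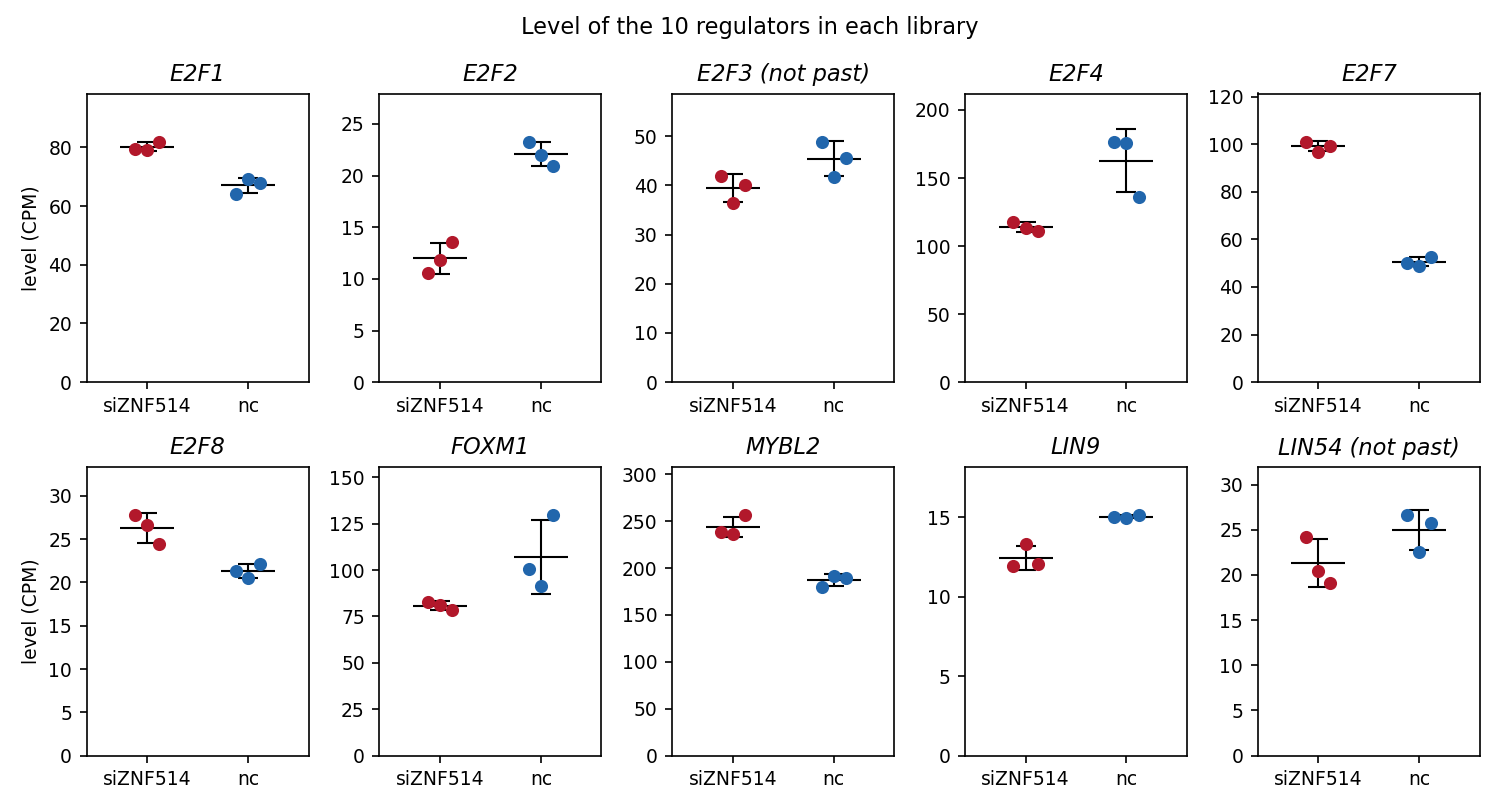
Level in CPM of each of the 10 regulators in the 3 siZNF514 libraries (left, red) and the 3 nc libraries (right, blue); the long bar is the mean and the whiskers are 1 SD. The groups are apart in 8 panels and overlap for E2F3 and LIN54.

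Among the activator E2F genes, E2F1 and E2F2 moved in opposite directions. E2F1 (ENSG00000101412; GRCh38 chromosome 20, 33675683 to 33686404, minus strand) had 79.5, 79.1 and 81.9 CPM in siZNF514, against 64.2, 69.2 and 67.8 CPM in nc. It was higher in each siZNF514 library than in any nc library, by 1.19-fold (0.26, SE 0.05, adjusted p = 0.00517). With total counts in place of TMM it was 0.13 and not past (adjusted p = 0.0663). E2F2 (ENSG00000007968; chromosome 1, 23506430 to 23531220, minus strand) had 10.6, 11.8 and 13.6 CPM in siZNF514, against 23.3, 22.0 and 20.9 CPM in nc. It fell to 54.4% of the nc level (-0.88, SE 0.11, adjusted p = 0.000678), and no library of either group came near the other group. E2F3 (ENSG00000112242; chromosome 6, 20401906 to 20493715, plus strand) had 41.9, 36.3 and 40.2 CPM in siZNF514, against 48.9, 41.8 and 45.5 CPM in nc. The groups met at siZNF514 replicate 1 and nc replicate 2, and E2F3 did not pass (-0.20, SE 0.08, adjusted p = 0.0835), although it was called lower in 7 of 16 alternatives. E2F3 is known to make a long and a short protein from separate starts, and it has 2 RefSeq windows, but the table has 1 value for the gene.

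E2F4, an E2F of the DREAM complex, was lower. E2F4 (ENSG00000205250; chromosome 16, 67192169 to 67198918, plus strand) had 117.9, 113.0 and 111.1 CPM in siZNF514, against 176.8, 175.6 and 136.2 CPM in nc. The siZNF514 libraries were close together, and nc replicate 3 lay between them and the other nc libraries. E2F4 fell to 70.0% of the nc level (-0.51, SE 0.10, adjusted p = 0.0048), and the difference was -0.63 without nc replicate 3.

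E2F7 made the largest change among the regulators on the TMM scale, and its relative E2F8 a smaller one in the same direction. With total counts alone E2F2 (-1.01) was larger in size than E2F7 (0.84). E2F7 (ENSG00000165891; chromosome 12, 77021247 to 77065580, minus strand) had 101.1, 96.9 and 99.2 CPM in siZNF514, against 50.1, 48.8 and 52.5 CPM in nc. It rose 1.96-fold (0.97, SE 0.05, adjusted p = 1.9e-05), a size above 89.2% of tested genes, and the difference stayed between 0.95 and 1.00 when any library was left out. E2F8 (ENSG00000129173; chromosome 11, 19224063 to 19241620, minus strand) had 27.8, 26.7 and 24.4 CPM in siZNF514, against 21.3, 20.5 and 22.2 CPM in nc. It rose 1.23-fold (0.30, SE 0.08, adjusted p = 0.0198). The call was lost without siZNF514 replicate 1, siZNF514 replicate 2 or nc replicate 2 (adjusted p = 0.054, 0.0518 and 0.0582), and with total counts E2F8 stood at 0.17 (adjusted p = 0.123); the replicate block and the 4 limma fits lost it too.

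To compare levels between the genes, CPM was divided by kilobases of merged exons in GENCODE release 29, which gives the same start and end for all 10 genes as the table. On that scale MYBL2 was the most abundant regulator, at 87.7 ± 3.99 CPM per kilobase in siZNF514 and 67.3 ± 2.32 in nc (SD, n = 3 each). In siZNF514 it was followed by E2F1 (32.0 ± 0.613) and E2F4 (31.8 ± 0.972), whose libraries overlapped, then FOXM1 (16.5 ± 0.486) and E2F7 (15.7 ± 0.331), which also overlapped. In nc, E2F4 (45.5 ± 6.45) stood above E2F1 (26.8 ± 1.038) without overlap, FOXM1 (21.9 ± 4.06) overlapped E2F1, and E2F7 (8.01 ± 0.3) overlapped E2F3 (8.79 ± 0.688). E2F8, LIN54, LIN9 and E2F2 were lowest in both groups (LIN54 and LIN9 overlapped in each), with E2F2 last in siZNF514 at 2.2 ± 0.273 and LIN9 last in nc at 3.39 ± 0.0236 CPM per kilobase.

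The make-up of the E2F family was compared on a scale that needs no factor between libraries. Of the summed level per kilobase of the 6 E2F genes, E2F7 and E2F8 together held 23.3%, 23.2% and 22.6% in the siZNF514 libraries, against 12.9%, 12.5% and 15.0% in the nc libraries. E2F4 held 33.8%, 33.5% and 32.4% in siZNF514, against 48.5%, 48.3% and 41.6% in nc. The activators E2F1, E2F2 and E2F3 together held 42.9%, 43.3% and 45.0% in siZNF514, against 38.7%, 39.2% and 43.5% in nc, so these shares overlapped. The shares depend on the gene lengths used. On the scale of the deposited FPKM, E2F4 held 19.5% ± 0.567 in siZNF514 libraries and 29.2% ± 3.2 in nc libraries (SD, n = 3 each). E2F7 and E2F8 together held 21.1% ± 0.577 in siZNF514 libraries and 13.6% ± 1.012 in nc libraries. On both scales these libraries did not overlap between groups. The summed level, which unlike the shares depends on the TMM factors, was 95.8 ± 1.65 CPM per kilobase in siZNF514 and 98.3 ± 5.9 in nc (SD, n = 3 each). Within libraries, E2F1 exceeded E2F2 by 14.7 ± 1.59 times in siZNF514 and by 6.65 ± 0.562 times in nc, which follows from their opposite changes. E2F7 stood at 0.491 ± 0.0127 of E2F1 in siZNF514 libraries and at 0.299 ± 0.0167 in nc libraries.

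**Figure D3:**
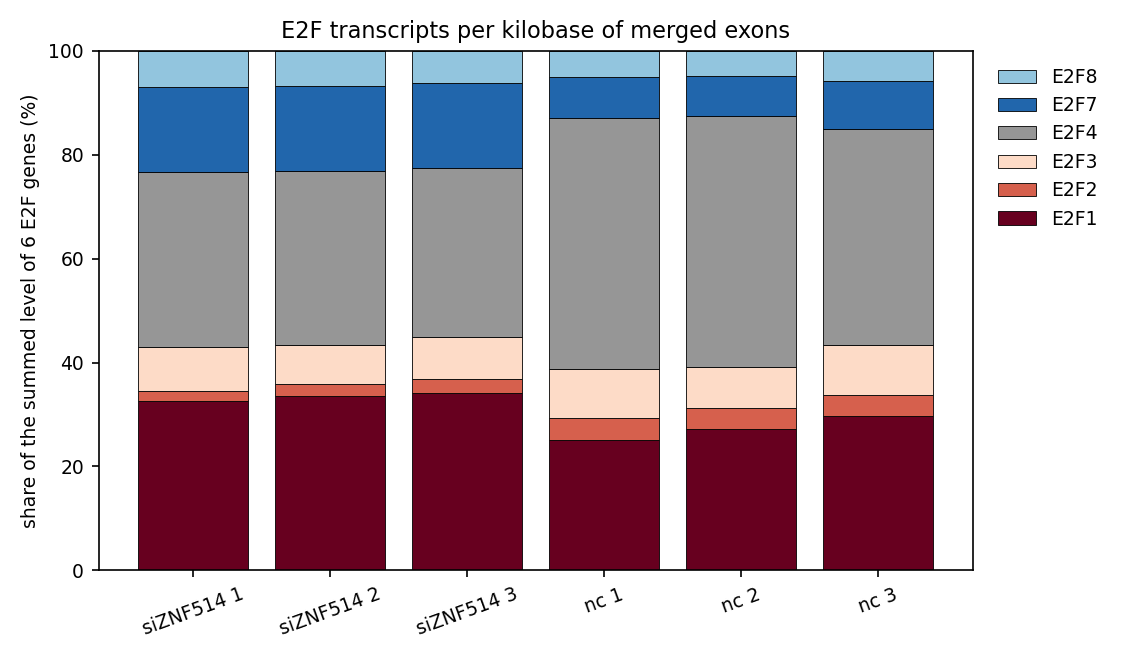
Share of each E2F gene, in percent, of the summed level of 6 E2F genes per kilobase of merged exons, in each siZNF514 library (left) and nc library (right). The E2F7 band is 16.3% to 16.5% in siZNF514 libraries and 7.63% to 9.11% in nc libraries, and the E2F4 band is narrower in every siZNF514 library than in any nc library.

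The MuvB activators also divided, with MYBL2 higher and FOXM1 lower. MYBL2 (ENSG00000101057; chromosome 20, 43667019 to 43716496, plus strand) had 238.0, 236.6 and 256.4 CPM in siZNF514, against 179.5, 191.7 and 189.2 CPM in nc. It rose to 130.4% of the nc level (0.38, SE 0.05, adjusted p = 0.000675), and it stayed above 0.25 in every alternative. FOXM1 (ENSG00000111206; chromosome 12, 2857681 to 2877155, minus strand) had 82.9, 81.4 and 78.3 CPM in siZNF514, against 100.5, 91.6 and 129.6 CPM in nc. The siZNF514 libraries were close together below all nc libraries, and nc replicate 3 stood high. FOXM1 fell to 75.4% of the nc level (-0.41, SE 0.12, adjusted p = 0.0278). The difference was -0.25 without nc replicate 3, still past the threshold (adjusted p = 0.0249), and it was not past without siZNF514 replicate 1, 2 or 3 (adjusted p = 0.0633, 0.0693 and 0.0851). Of the FOXM1 exon bases, 15.9% are shared with exons of ITFG2 on the opposite strand, and no source used here gives the strand setting of the counting. ITFG2 had 311, 356 and 362 counts in siZNF514, against 429, 468 and 373 in nc, where FOXM1 had 1057, 1062 and 1068 counts in siZNF514, against 1295, 1306 and 1643 in nc, and its part in the FOXM1 values was not tested. Per kilobase, MYBL2 exceeded FOXM1 by 5.06, 5.13 and 5.78 times in siZNF514 libraries, against 3.15, 3.69 and 2.57 times in nc libraries. As the groups did not overlap for either gene, in opposite directions, these ratios could not overlap and add no further result.

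Of the MuvB core genes, LIN9 was slightly lower and LIN54 did not pass. LIN9 (ENSG00000183814; chromosome 1, 226231149 to 226309869, minus strand), a scaffold subunit, had 11.9, 13.3 and 12.1 CPM in siZNF514, against 15.1, 14.9 and 15.1 CPM in nc. It fell to 82.8% of the nc level (-0.27, SE 0.09, adjusted p = 0.0408), a call lost when any library but siZNF514 replicate 2 was left out, and also in the DESeq2 Wald test (adjusted p = 0.0879), with no filter (adjusted p = 0.133) and with the replicate block (adjusted p = 0.085). LIN54 (ENSG00000189308; chromosome 4, 82909973 to 83012926, minus strand), the DNA-binding subunit, had 24.2, 20.5 and 19.1 CPM in siZNF514, against 26.6, 22.5 and 25.8 CPM in nc. These libraries overlapped, and LIN54 did not pass (-0.23, SE 0.12, adjusted p = 0.138), with a difference of -0.15 without siZNF514 replicate 3 and -0.33 without siZNF514 replicate 1.

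**Figure D4:**
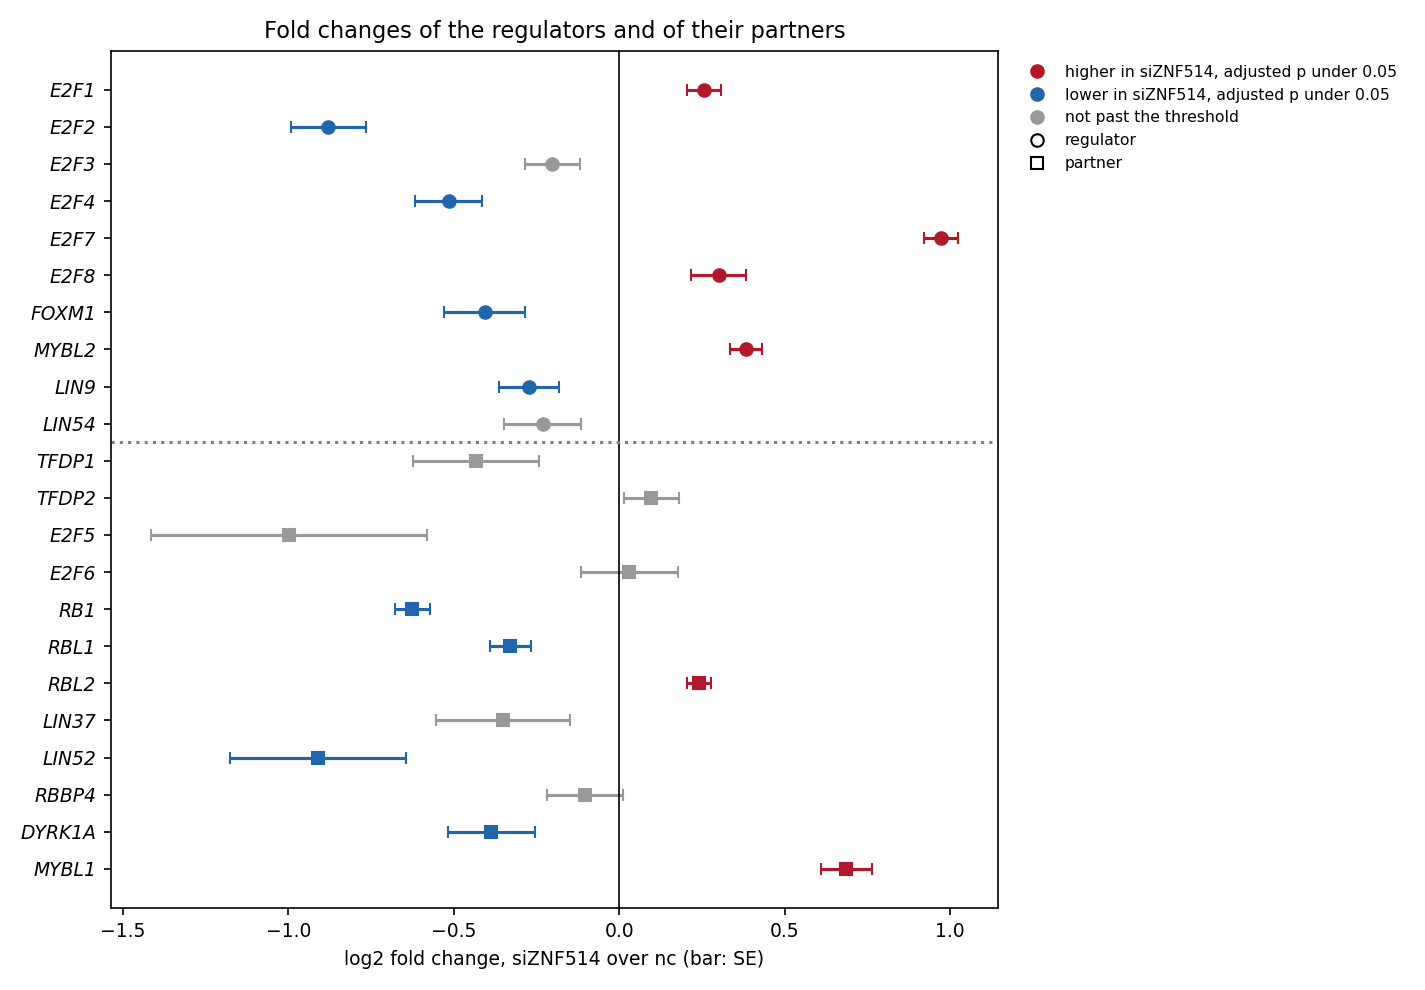
Log2 fold change of siZNF514 over nc, with its SE as a bar, for the 10 regulators (circles, above the dotted line) and 12 tested partners (squares, below it); red is higher, blue lower and grey not past. E2F7 lies farthest to the right at 0.97, and E2F2 is the lowest regulator at -0.88.

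Of 13 partner genes of these factors, 12 were tested, of which 4 fell, 2 rose and 6 were not past the threshold (median -0.34 on the log2 scale). The 6 called are near the background of 50.6%, and nothing particular to the partners is read from the count. The pocket proteins moved apart. RB1 had 62.6, 60.8 and 57.9 CPM in siZNF514, against 96.1, 92.7 and 91.0 CPM in nc, and fell (-0.63, SE 0.05, adjusted p = 0.000104). RBL1 (p107), known to be made in cycling cells, fell (-0.33, SE 0.06), and RBL2 (p130), known as the pocket protein of resting cells, rose (0.24, SE 0.04). RBL2 had 195.8, 193.2 and 194.9 CPM in siZNF514, against 164.2, 164.4 and 165.7 CPM in nc. MYBL1 (A-MYB), a relative of MYBL2, rose 1.61-fold (0.69, SE 0.08), with 86.0, 84.4 and 75.9 CPM in siZNF514, against 48.2, 49.6 and 55.3 CPM in nc.

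The other tested partners, inside MuvB and outside it, had larger SEs than the pocket proteins. LIN52, the subunit through which MuvB joins RBL1 or RBL2, had 9.02, 10.3 and 19.3 CPM in siZNF514, against 24.3, 24.5 and 24.1 CPM in nc, and siZNF514 replicate 3 stood apart from its group. LIN52 fell (-0.91, SE 0.26, adjusted p = 0.0245), a call lost when any library but siZNF514 replicate 3 was left out. DYRK1A, the kinase known to act on LIN52 in DREAM assembly, fell (-0.39, SE 0.13, adjusted p = 0.0426), but passed with only 1 of the 6 libraries left out, nc replicate 2. The other core subunits, LIN37 (-0.35, SE 0.20) and the histone-binding RBBP4 (-0.10, SE 0.12), did not pass. LIN37 was called lower at -0.53 without nc replicate 2, and ran to -0.24 without nc replicate 3, while RBBP4 ran between -0.23 and -0.01 with a library left out (without siZNF514 replicates 1 and 3). Of the DP partners of E2F factors, TFDP1 did not pass (-0.43, SE 0.19), at 129.3, 133.2 and 189.7 CPM in siZNF514 against 221.6, 157.9 and 231.7 CPM in nc, and was called lower at -0.63 without siZNF514 replicate 3 and at -0.59 without nc replicate 2. TFDP2 (0.10, SE 0.08) and the pocket-independent repressor E2F6 (0.03, SE 0.15) did not pass, and both were below 0 with total counts alone. E2F5, a relative of E2F4, did not pass and was low, at 0.54 ± 0.246 CPM in siZNF514 and 1.07 ± 0.315 CPM in nc, and TFDP3 had no count.

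Genes that these factors are known to control were taken from textbook lists. The lists were chosen with earlier results of these data known, so their counts are no independent test. Of 46 G1/S targets of E2F factors, 17 fell, 8 rose and 21 were not past the threshold. Those that fell were 37.0% and those that rose 17.4% of the list, where 25.1% of all tested genes fell and 25.5% rose, and the share called in either direction was near the background of 50.6%. Their median was -0.12 on the log2 scale, and with total counts alone 22 fell and 6 rose. The histone chaperone gene ASF1B fell to 37.2% of the nc level, CDC6, which loads the replicative helicase, to 47.5%, the sliding clamp gene PCNA to 52.3%, and the checkpoint adaptor gene CLSPN to 59.4%. The ribonucleotide reductase subunit genes RRM2 (2.38-fold) and RRM1 (1.27-fold) rose, as did the exonuclease gene EXO1 (1.36-fold). E2F letters were in the promoters of 26 of 38 such genes with a window, against 20.7% of 10001 tested genes. Among the G2/M targets described below it was 15 of 48. The list holds known E2F targets, so these counts are no independent test.

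Of 55 G2/M targets of MuvB and FOXM1, 49 were called higher, 1 lower and 5 neither, where 25.5% of all tested genes were higher and 25.1% lower. This list too was chosen with earlier results of these data known. The median of the list was 0.65 on the log2 scale, and FOXM1 itself fell. CKS2, a cyclin-dependent kinase subunit, had 202.8, 217.1 and 199.1 CPM in siZNF514, against 77.3, 79.0 and 80.6 CPM in nc, a 2.61-fold rise. The mitotic kinase gene AURKA rose 2.30-fold, the cyclin gene CCNA2 2.14-fold and the kinetochore gene CENPF 1.91-fold. The gene that fell was GAS2L3, a cytoskeletal linker (-0.63, SE 0.10), and those not past were CENPA, MKI67, CKAP2, PIMREG and LMNB1. Between 48 and 50 of the list rose when any library was left out, and 48 with total counts alone. CHR letters were in the promoters of 36 of 48 such genes with a window, against 5 of 38 G1/S targets and 15.2% of 10001 tested genes. MuvB is known to bind these letters through LIN54, so a list of its targets is no independent test of them. In bulk RNA, a change in the share of cells in a phase and a change in RNA per cell cannot be told apart.

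**Figure D5:**
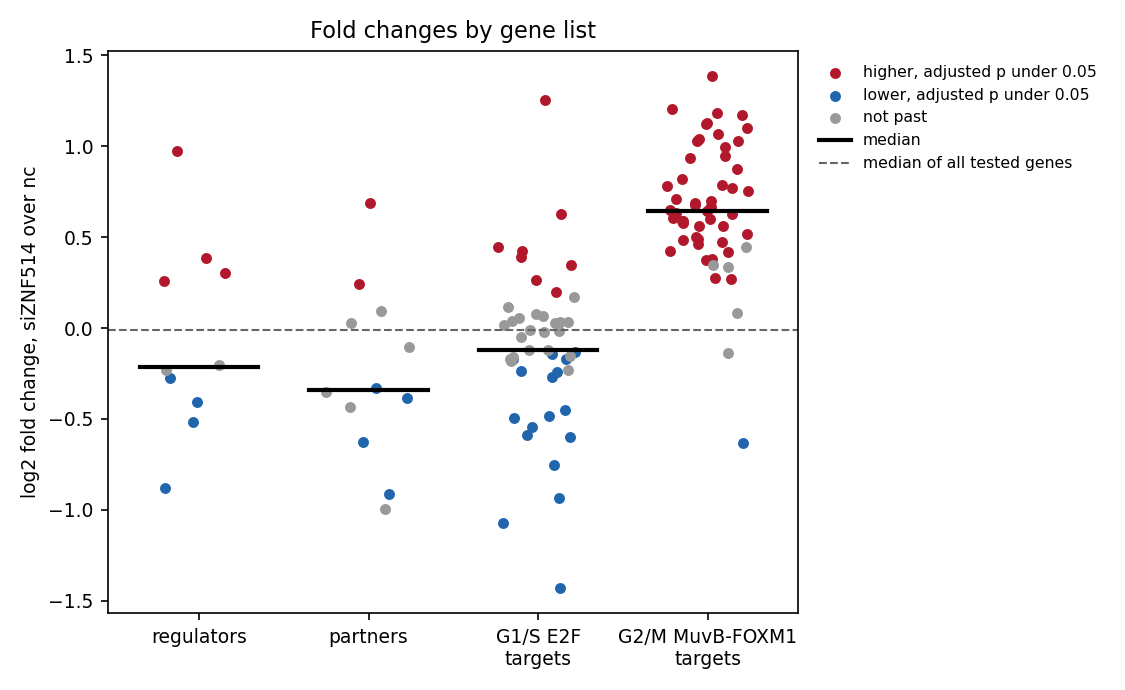
Log2 fold change of siZNF514 over nc for the regulators, their partners and 2 target lists, a point for each tested gene (red higher, blue lower, grey not past); thick lines are list medians and the dashed line is the median of all tested genes. The G2/M list lies mostly above 0, with a median of 0.65, and the other lists lie on both sides.

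The listed genes most like each called regulator were found by the Euclidean distance between log2 CPM profiles over the 6 libraries, each centred on its own mean, among 122 genes. The distance is small where genes have a like fold change. As only listed genes were candidates, the kind of neighbour depends on the lists. Nearest to E2F7 were the mitotic ubiquitin enzyme gene UBE2C (0.045) and the mitotic kinesin gene KIF20A (0.127). Nearest to E2F2 were CDC6 (0.322) and PCNA (0.327), to E2F4 the repair and checkpoint genes BRCA1 (0.145) and CHEK1 (0.261), and to FOXM1 the partners DYRK1A (0.222) and RBL1 (0.288). MYBL2 was nearest to CDCA8 (0.118) and CDC25A (0.158), E2F1 to RBL2 (0.0874) and ASPM (0.0907), E2F8 to RRM1 (0.0867) and ECT2 (0.141), and LIN9 to CDC45 (0.162) and GINS3 (0.166).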

How the data were processed

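RNA was measured in 6 KYSE-150 libraries. The deposited count columns hold whole-number counts per gene with no normalization, per the file headers and values, and the deposited FPKM columns are those counts per kilobase of a fixed gene length and per library total (lengths within 0.0791% of each other over 22289 genes). Per the submitters' processing notes, hg38, edgeR, StringTie 1.3.3b and HISAT2 2.0.4 are named, in no stated role or order. No source used here gives the annotation, strand setting or filters. Columns were matched to libraries by title, and there were 0 other per-sample columns.

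Genes were filtered with filterByExpr (minimum count 10, total 15) in edgeR 4.0.16 on R 4.3.3, which kept 14250 genes, holding 99.8% or more of the counts. TMM factors were 0.954 to 0.962 in siZNF514 libraries and 1.04 to 1.05 in nc libraries, so the scaling itself differed between the compared groups. Groups were tested without covariates by glmQLFit and glmQLFTest. The SE is the size of the log2 fold change divided by the square root of F. The procedure was tested on simulated counts with few changed genes, balanced between higher and lower. That setting differs from these data, where 50.6% of tested genes were called. Before TMM scaling a single count was worth 0.0698 to 0.0821 CPM. Pairs of libraries within a group differed by more than sampling noise (chi-square of 7.43 to 9.69 per degree of freedom).

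Alternatives were a replicate block, leaving out each library, DESeq2 size factors, total counts alone, other filters, the DESeq2 1.42.0 Wald test, and limma 3.58.1 trend fits on log2(FPKM + 0.1) with other pseudocounts (1 and 0.01). Named were all regulators and partners, up to 4 genes with the smallest p in each direction of a target list, the 2 nearest profiles, and ZNF514; the G2/M targets that did not pass were named after their values were seen. Items withheld from the text are not reported here. Levels between genes were to be read from the deposited FPKM. After its lengths were seen, CPM per kilobase of merged GENCODE release 29 exons was used in its place, and both orders of E2F1 and E2F4 are given in the closing section. The regulators and lists were chosen with earlier results of these data known, and the promoter letters after the sequences were seen.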

Additional observations from a re-analysis of the deposited data

How the results depend on the processing

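All 10 regulators kept their direction in all 16 alternatives. The number called higher was 2 with total counts alone, and ran from 3 to 4 with a library left out; the number called lower ran from 2 to 3 with a library left out. Leaving out siZNF514 replicate 3 left 4 higher and 2 lower, with FOXM1 and LIN9 not past. E2F3 and LIN54 were called lower with total counts alone (-0.33 and -0.36). Partners called lower ran from 2 to 5 with a library left out (2 without siZNF514 replicate 1, siZNF514 replicate 2, nc replicate 1 or nc replicate 3). Partners that were not past turned sign near 0: TFDP2 was -0.0304 with total counts alone and -0.0296, -0.0172, -0.0319 and -0.0296 in limma-trend with pseudocounts 0.1, 1 and 0.01 and with no filter. E2F6 was -0.10 with total counts alone, -0.00483 at a mean count of at least 50, -0.108, -0.0721, -0.114 and -0.108 in those limma-trend fits, and -0.0533 to 0.19 with a library left out. G1/S targets called higher were 5 in limma-trend with no filter. G2/M targets called lower were 2 in 7 alternatives: the DESeq2 Wald test, total counts alone, a mean count of at least 50 and the 4 limma-trend fits. Over all genes, 2411 were higher in limma-trend with a pseudocount of 0.01 and 2209 with no filter, and total counts alone gave 2493 higher and 4775 lower. The cause of these shifts was not tested. By deposited FPKM, a comparison added after seeing the data, mean E2F shares in siZNF514 and nc were 59.3% and 57.3% for E2F1, E2F2 and E2F3, 19.5% and 29.2% for E2F4, and 21.1% and 13.6% for E2F7 and E2F8, through other gene lengths.

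With the replicate number as a block, 3356 genes were higher and 3284 lower, 3 regulators were higher and 4 lower, E2F8 (0.30, adjusted p = 0.054) and LIN9 (-0.27, adjusted p = 0.085) were not past, and E2F3 was past (-0.20, adjusted p = 0.0471). Deviations of same-numbered libraries from their group means correlated at r = 0.00749, 0.0413 and -0.0358 across genes, and not every library correlated best with its own number. Such correlations cannot show whether same-numbered libraries were prepared together, and the main test did not use the numbers as pairs.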

Other observations

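The length behind each deposited FPKM value matched the summed length of all distinct exons in GENCODE release 29, overlapping exons counted repeatedly, for all 10 regulators and, within 0.1%, for 22923 of 25759 genes (89%). Merged exons matched for 34.3%. For E2F4 the length was 9300 bases, more than the 6750 bases of its locus and the 3582 bases of its merged exons, while for E2F1, with 1 transcript, both lengths were 2503 bases. The order of these genes within nc libraries therefore turned round: by deposited FPKM, E2F4 stood at 19.9, 19.7 and 15.2 and E2F1 at 26.9, 28.8 and 28.2, while per kilobase of merged exons E2F4 stood at 45.5 ± 6.45 CPM and E2F1 at 26.8 ± 1.038 CPM (SD, n = 3). Fold changes of a gene are not affected, since the length is the same in every library.

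Genes that overlap the loci of LIN54 and FOXM1 without sharing exons with them, chosen after their values were seen, were uneven among nc libraries. THAP9, opposite to LIN54, had 71, 66 and 60 counts in siZNF514, against 10, 66 and 16 in nc. RHNO1, opposite to FOXM1, had 347, 404 and 379 counts in siZNF514, against 216, 458 and 405 in nc. In siZNF514 replicate 3 the lysozyme gene LYZ had 49 counts, against 0 and 0 in the other siZNF514 libraries and 7, 2 and 5 in nc, and the matrix gene DCN had 33, against 0 and 0 in the other siZNF514 libraries and 0, 3 and 0 in nc.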
